A study of Onthophagus taurus with 15 samples.

Results

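Head horn of large male Onthophagus taurus pupae was compared with dorsal abdominal epithelium of the same animals on 5 two-colour arrays, chosen by their titles, of 15 arrays in the series. Onthophagus taurus is a dung beetle raised here in a laboratory colony, and all tissue was taken within 24 h of pupation. Each RNA sample pooled tissue of 4 pupae, and the arrays carry the letters A to E. Arrays A, C and E carried head horn RNA in Cy3, while B and D carried it in Cy5. The other 10 arrays set thoracic horn (5 arrays) and legs (5 arrays) of such pupae against dorsal abdominal epithelium in the same layout.

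Head horns of this beetle are rigid outgrowths of the head epidermis, carried as a long curved pair by large males and used in fights. They have no joints or muscles of their own and grow as folded epidermis under the larval cuticle before they are everted at pupation. The thoracic horn of this species is a pupal outgrowth that is lost before adulthood, and legs are jointed limbs. Genes known from insect limb patterning, among them Distal-less and homothorax, have been studied in beetle horns for that reason. The abdominal epithelium serves as body wall without such an outgrowth.

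The table held 3840 clones, that is, spotted cDNAs named by plate and well. None of the clone IDs (0 of 3840) was found in the gene table for this beetle, so clones are given by ID, without gene names or roles. Values are log ratios of head horn and abdomen, read as log2 because the submitters' processing notes name limma, which works on that scale. Positive values probably stand for a higher level in head horn, since titles and channel order name the appendage first, but the sources used here do not state it. If the ratio ran the other way, every sign below would be turned. Tissue identity rests on the labels alone, as no marker gene could be looked up. Fewer cells of a type and less RNA per cell cannot be told apart in such samples.

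The 5 head horn arrays held values for 3545 to 3798 clones, with array medians from -0.07 to 0.10. Array D was the least complete, with 295 empty clones, against 42 to 106 on the others. Ratios of at least 2-fold made up 26.2% of the values on array C, 24.1% on D and 23.3% on B, and 20.9% on A and 19.3% on E. Over clones, head horn arrays of the same dye layout correlated at 0.61 to 0.69 (4 pairs) and arrays of opposite layout at 0.30 to 0.38 (6 pairs). Clones are not independent and the arrays share their spotted probes, so these coefficients only describe the arrays. As arrays of opposite layout correlated above 0, the deposited ratios were read as having the dye flip already undone.

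Head horn and abdomen differed in a large share of the clones. Of 3725 clones tested, 1408 were called, meaning an adjusted p under 0.05 by limma, which is 37.8% of those tested. Positive ratios were called in 692 clones (18.6%) and negative ratios in 716 (19.2%). This fit takes the spread between arrays from all 15 arrays. On the 5 head horn arrays alone, limma called 734 clones, 315 positive and 419 negative. The difference was at least 2-fold in 460 called clones (12.3%), 192 of them positive and 268 negative. Called positive clones had a median fitted ratio of 0.62 and called negative clones one of -0.80, while clones that were not called had a median absolute fit of 0.20. The smallest called ratio was 0.20, with fits reaching 3.91 at the high end and -4.19 at the low end.

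Positive and negative calls were not spread alike over the sizes. Below 1.5-fold, 321 positive and 238 negative clones were called. Between 1.5-fold and 2-fold the counts were 179 and 210, and between 2-fold and 4-fold they were 110 positive and 186 negative. At 4-fold and above they were equal, at 82 each. With arrays centred on their medians the same classes held 315 and 254, 168 and 218, 110 and 189, and 82 and 82, so the order in each class did not turn. With arrays scaled to one spread, the largest class held 76 positive and 78 negative clones.

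Large differences were nearly always called. Of 166 clones with a fit of 4-fold or more, 164 were called (98.8%), and of 360 clones between 2-fold and 4-fold, 296 were called (82.2%). The 66 clones at 2-fold or more that were not called had 44 positive and 22 negative fits. In the plot of fits and standard errors, clones not called surround 0 and reach the widest errors.

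**Figure D1:**
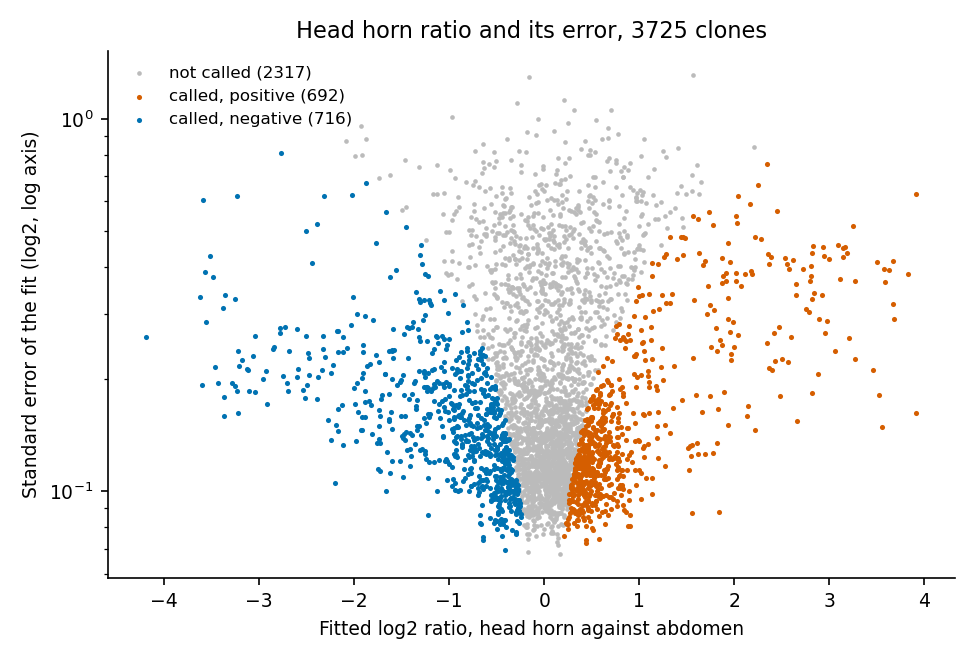
Fitted log2 ratio of head horn against abdomen (horizontal axis) and its standard error (vertical axis, log scale) for the 3725 clones tested. The 692 positive and 716 negative called clones form both arms, and the 2317 clones not called fill the centre and the region of wide errors above it.

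Agreement between arrays rose with the size of the ratio. Among the 1382 called clones with all 5 head horn values, 1082 (78.3%) had 1 sign on every array, 259 (18.7%) on 4 arrays and 41 (2.97%) on 3. Among clones not called, 7.46% had 1 sign on every array. Over all clones tested with 5 values, 1 sign was found in 488 of 2434 below 1.5-fold, in 264 of 321 between 2-fold and 4-fold and in 51 of 51 at 8-fold and above. Calls and signs come from the same values, so these shares describe the calls and do not test them. In the 259 clones with 1 array of the other sign, that array was A in 89, E in 56, B in 53, C in 37 and D in 24.

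The spread between arrays was wider for larger ratios up to the class of 4-fold to 8-fold, and not beyond it. The median SD over the 5 arrays was 0.36 below 1.5-fold, 0.57 between 2-fold and 4-fold, 0.76 between 4-fold and 8-fold and 0.76 at 8-fold and above. Taken within a dye layout, the median SD was 0.32, 0.54, 0.76 and 0.72 in these classes.

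Fitted within a dye layout, the 3 arrays A, C and E gave 917 calls among 3714 clones, and the pair B and D gave 797 among 3252 (limma). Of 3246 clones tested in both, 470 were called in both with the same sign and 8 with opposite signs. Of the 1408 called clones, 1363 could be tested in both layouts. Their layout means had the same sign in 97.6%, against 70.7% of all clones tested in both. The calls were made on these same arrays, which favours equal signs, so the higher share does not test agreement between layouts. A layout term of its own for head horn was called in 69 clones, 40 higher on A, C and E and 29 higher on B and D. Of the 69, 16 were also called against abdomen, where 37.8% of all clones tested were called. Dye bias and differences between the pupae behind these letters cannot be told apart.

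The 10 highest clones lay between 3.56 and 3.91, 11.8-fold to 15.1-fold, and 5 of them carry the prefix OtP and 5 the prefix OtL. OtP020-E08 stood at 3.65 on array A, 4.27 on B, 3.67 on C, 4.44 on D and 3.36 on E, a fit of 3.91 ± 0.16 (SE, 15.1-fold, adjusted p = 5.51e-09 by limma). All 5 arrays were far above 0, with D and B highest. OtP015-A03 stood at 3.23, 3.97, 3.29, 4.28 and 2.82 on A to E, a fit of 3.56 ± 0.15 (SE, 11.8-fold, adjusted p = 5.51e-09 by limma). Again B and D were highest and E lowest. These p-values take the spread from all 15 arrays. With the 5 head horn arrays alone, the adjusted p was 9.32e-04 for OtP020-E08 and 0.00138 for OtP015-A03 (limma).

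OtP011-E02 stood at 3.25, 3.89, 4.34, 4.19 and 2.52 on A to E, with a fit of 3.68 ± 0.29 (SE). OtL009-F10 stood at 3.10, 4.25, 4.58, 3.43 and 2.66, with a fit of 3.67 ± 0.32 (SE). In both clones arrays C and B or D were high and E was lowest. OtL014-H05 had the widest spread of the group, at 1.87, 4.95, 4.51, 4.74 and 2.31 on A to E, and OtP013-D03 was similar at 2.16, 5.12, 4.38, 3.75 and 1.98. Arrays A and E lay well below the other 3 in both.

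OtL005-B12, OtP007-G12, OtL005-B02 and OtL007-C10 complete the group, at fits of 3.82, 3.67, 3.63 and 3.58, with array B highest in each. Their values over all 15 arrays ran closely together. For the first 3 of these clones the nearest of all complete profiles was that of OtL007-C10, at a root mean square difference of 0.30, 0.25 and 0.24. Clones can come from 1 transcript, and whether these do was not tested.

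The lower values on A and E were general among large positive ratios. Over the 79 called clones at 4-fold or more with a positive ratio and all 5 values, the median was 1.94 on A, 3.88 on B, 3.58 on C, 2.80 on D and 1.95 on E. A and E were the lowest pair of arrays in 59 of these 79 clones (74.7%). Over the 77 such clones with a negative ratio, the medians were -3.02, -2.44, -2.78, -3.04 and -2.21 on A to E. Here B and E were the pair nearest 0 in 33 clones (42.9%), and A was among the most negative arrays. A and E carried head horn in Cy3, as did C, which was high, and both Cy5 arrays were above A and E. The part of the dye layout in this pattern was not tested.

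**Figure D2:**
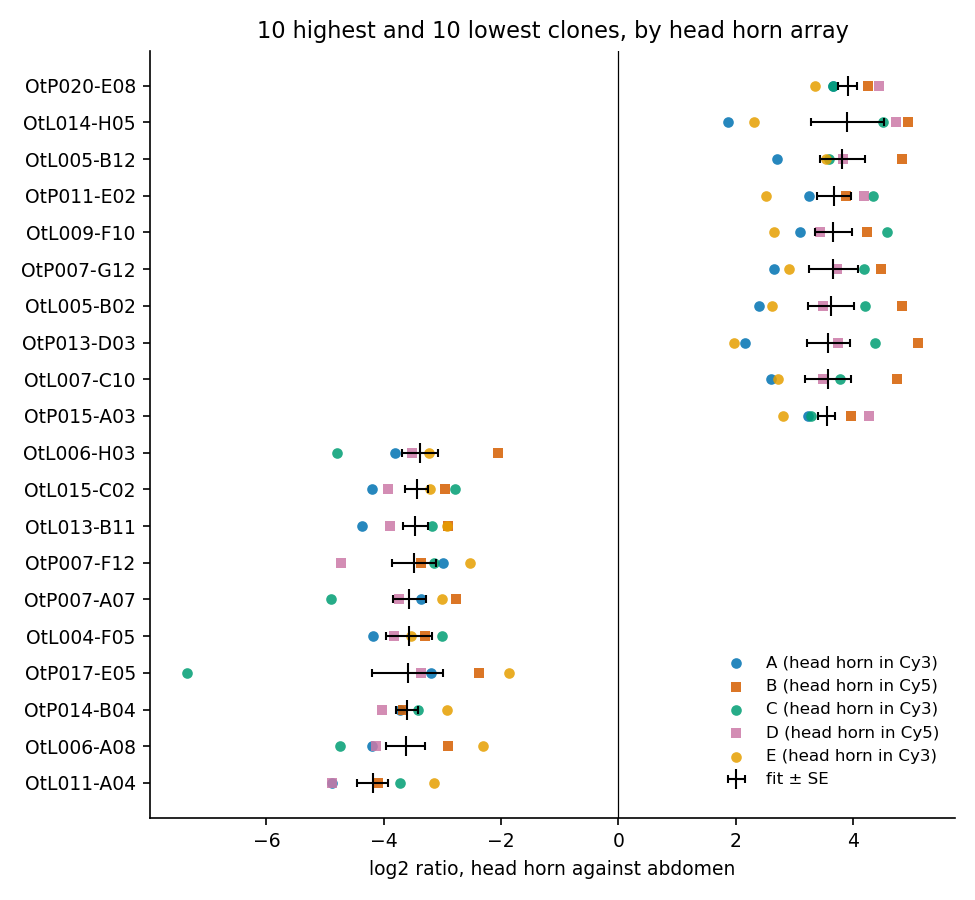
Log2 ratio of head horn against abdomen on each of the 5 arrays (circles, head horn in Cy3; squares, head horn in Cy5) for the 10 highest and 10 lowest called clones, with the fit ± SE in black. All arrays of the upper group lie above 0, with A and E mostly leftmost, and all arrays of the lower group lie below 0, with OtP017-E05 on array C farthest out at -7.36.

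The 10 lowest clones lay between -4.19 and -3.38. OtL011-A04 stood at -4.87 on A, -4.09 on B, -3.73 on C, -4.88 on D and -3.15 on E, a fit of -4.19 ± 0.26 (SE, 18.2-fold, adjusted p = 7.40e-08 by limma). OtP014-B04 was the tightest, at -3.73, -3.67, -3.42, -4.04 and -2.91 on A to E, with a fit of -3.61 ± 0.19 (SE, 12.2-fold, adjusted p = 2.82e-08 by limma). Every array of both clones was below -2.9. Fitted on the head horn arrays alone, their adjusted p-values were 0.00177 for OtL011-A04 and 0.00162 for OtP014-B04 (limma). OtP017-E05 had a fit of -3.59 ± 0.60 (SE), with -7.36 on array C and -3.19, -2.37, -3.37 and -1.87 on A, B, D and E. Its array C alone lay far from the rest, and without that letter the fit was -2.70 (adjusted p = 1.24e-05 by limma). The head horn arrays alone, with C kept, gave it an adjusted p of 0.0379 (limma).

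The other low clones were OtL006-A08 (-3.62), OtL004-F05 (-3.57), OtP007-A07 (-3.56), OtP007-F12 (-3.49), OtL013-B11 (-3.46), OtL015-C02 (-3.44) and OtL006-H03 (-3.38), given as fitted ratios. Their standard errors ran from 0.19 to 0.39, and their adjusted p-values stayed at or below 8.44e-06 (limma). When only the head horn arrays were fitted, the largest of their adjusted p-values was 0.0046, that of OtL006-A08 (limma). All 5 arrays were below 0 in each, as the rule for naming them required.

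Among clones called at 4-fold or more, the smallest spread belonged to OtL008-H02, OtP001-C05 and OtL016-D12. OtL008-H02 stood at -2.45, -2.44, -2.05, -2.38 and -2.47 on A to E, an SD of 0.18. OtL016-D12 stood at -2.24, -2.35, -1.88, -2.55 and -2.02, and OtP001-C05 at 2.23, 2.48, 2.59, 2.80 and 2.16.

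The widest spread belonged to OtL008-G04, at -1.15, 4.07, 3.89, 4.58 and -1.26 on A to E, an SD of 2.96 around a fit of 2.34 ± 0.75 (SE, adjusted p = 0.0256 by limma). OtL009-G10 stood at -0.21, 3.33, 3.34, 4.15 and -1.51, an SD of 2.51 around a fit of 2.03 ± 0.62 (SE, adjusted p = 0.0197 by limma). Arrays B, C and D were high and A and E were below 0 in both. The same letters parted in the other appendages, where OtL008-G04 stood at -1.96, 2.99, 2.21, 4.56 and -0.87 in thoracic horn and at -0.48, 2.64, 2.19, 1.69 and -0.09 in legs. Neither clone was called when B was left out (adjusted p = 0.0837 for OtL008-G04 and 0.0715 for OtL009-G10 by limma) or when D was left out (0.106 and 0.116). Nor was either called on the head horn arrays alone (0.0998 and 0.0941 by limma). Without C their fits were 1.56 and 1.44, and without E that of OtL009-G10 was 2.65.

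Calls were not equally frequent in both clone prefixes. Of the OtL clones tested, 818 of 1885 (43.4%) were called against abdomen, 403 positive and 415 negative, and of the OtP clones 590 of 1840 (32.1%), 289 positive and 301 negative. The balance of signs was close to even in each. What the prefixes stand for is not given in the sources used here. Over the 40 plates of 96 wells the share called ran from 24.7% to 58.3%, with a median of 36.25%. The highest share was that of plate OtL015. Neither comparison was tested.

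The next question was how much of the head horn profile is left once thoracic horn and legs are taken off. Over the 3182 clones measured on every array, the root mean square ratio of head horn was 0.89 on letter A, 1.06 on B, 1.08 on C, 1.04 on D and 0.81 on E. Subtracting the mean of thoracic horn and legs of the same letter left 0.50, 0.54, 0.63, 0.60 and 0.50. That was 57.0 ± 4.1% of the head horn value (SD, n = 5 letters), or 32.7 ± 4.7% of its mean square. The remainder was below the head horn value in 5 of 5 letters, with p = 0.0625 in an exact two-sided permutation test over sign flips, the smallest p that 5 letters allow.

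Much of that remainder did not repeat from letter to letter. Products of a clone's values on different letters keep only what repeats. Averaging pairs of the same and of opposite dye layout cancels the square of a constant dye bias. Its product with the ratio itself stays in part, because more letters carried the appendage in Cy3 than in Cy5. That part is larger with B or D left out. By these averaged products, a measure chosen after the data were seen, head horn had a repeatable mean square of 0.62. After subtracting the mean of the other appendages, 0.088 was left, or 14.1% (12.8% to 14.8% with each letter left out in turn). Subtracting thoracic horn alone left 13.7% (12.5% to 15.95%), and subtracting legs alone left 39.2% (34.3% to 42.0%). By this measure thoracic horn alone left about as little as the equal-weight mean of both appendages, and legs left more in all 5 fits without a letter. Other weights were not fitted with these products. By same-letter root mean square, the mean of both left 0.55 on average and thoracic horn alone left 0.62. The mean of both left less in 5 of 5 letters. The abdominal samples of a letter may come from the same pupae in the 3 tissues, and what is common to appendages cannot be told apart from what is particular to abdomen.

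**Figure D3:**
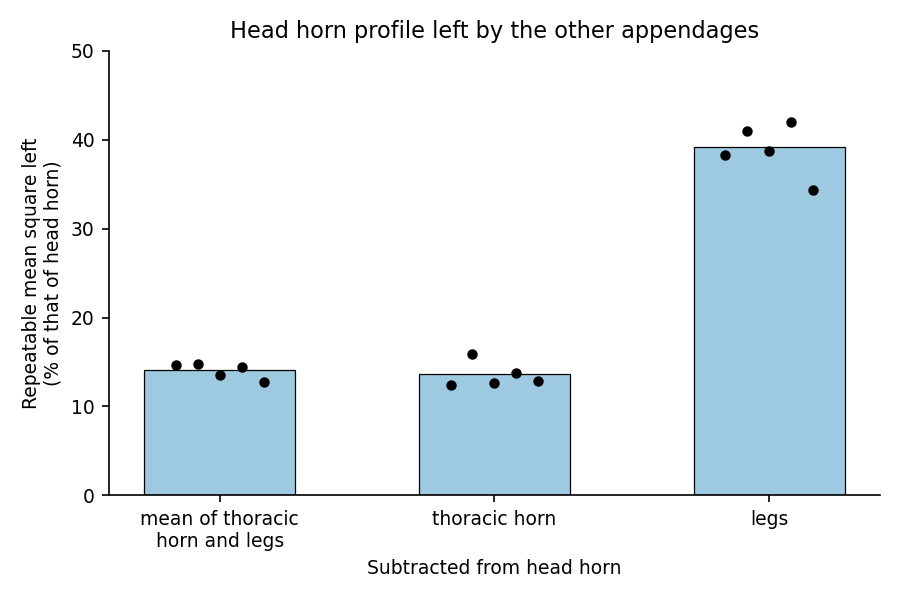
Repeatable mean square of head horn that remains after subtracting the mean of thoracic horn and legs, thoracic horn, or legs, as a percent of that of head horn (bars), with the 5 values that leave out 1 letter each (points). The bars stand at 14.1%, 13.7% and 39.2%, and the points of legs do not overlap those of the others.

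Single arrays showed how letter and tissue contribute to the distance. A head horn array differed from the thoracic horn array of its letter by a root mean square of 0.62 ± 0.07 (SD, n = 5 letters), and from the legs array of its letter by 0.72 ± 0.06. It differed from head horn arrays of other letters in the same dye layout by 0.76 ± 0.03, and from thoracic horn arrays of such letters by 0.76 ± 0.06. Within each letter, head horn was nearer to thoracic horn of that letter than to head horn of other letters in 5 of 5, and nearer to legs in 4 of 5, letter D being the exception. Against arrays of opposite layout the distance was 0.87 ± 0.03 to head horn, and it was 0.87 ± 0.06 to thoracic horn and 0.95 ± 0.08 to legs.

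Few clones differed by test between head horn and the mean of thoracic horn and legs. The contrast was called in 33 of 3725 clones (0.886%), 20 with head horn higher and 13 with head horn lower (limma). Same-letter arrays deviated together, and with the letter as a random replicate block 188 clones (5.05%) were called, 97 higher and 91 lower, among them all 33. Without letter A, B, D or E the count was 13, 16, 17 or 12. Within a dye layout no clone was called by limma (0 on A, C and E and 0 on B and D). An unadjusted p under 0.05 by limma was found in 238 clones on A, C and E (6.41% of 3714). On B and D it was found in 215 (6.61% of 3252). In the fit to all 15 arrays that share was 12.5%. Against thoracic horn alone head horn differed in 33 clones (0.886%), and against legs alone in 244 (6.55%). With the replicate block these counts were 100 and 752. With 1 letter left out they fell to between 9 (without D) and 26 (without E) against thoracic horn, and to between 74 (without E) and 119 (without A) against legs.

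Of the 1408 head horn calls, 26 (1.85%) also had the contrast called, and in 25 of these head horn lay farther from 0 than the mean of the others. With the replicate block, 138 of 1358 head horn calls (10.2%) had it called, 130 of them farther from 0. Without the block, leaving out letter A, B, D or E gave 11, 13, 14 or 10 such clones in place of 26. The absolute contrast was below 1.5-fold in 85.3% of the 1408 calls and at least 2-fold in 71 of them (5.04%). Among these calls the contrast had a median absolute size of 0.20 and a median standard error of 0.17. With the replicate block the median size was again 0.20 and the median standard error was 0.13.

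Large positive ratios had a higher median in head horn than in the other appendages, and large negative ratios did not have the lowest median in head horn. To keep choice and reading on separate arrays, clones were sorted by their head horn mean on letters A, C and E and read on B and D. The 66 clones at 4-fold or more in the positive direction then had a median of 3.24 in head horn, against 2.21 in thoracic horn and 2.07 in legs. Head horn was the farther from 0, against the mean of the others, in 61 of 66. The 80 clones at 4-fold or more in the negative direction had medians of -2.49 in head horn, against -2.22 in thoracic horn and -3.02 in legs, and head horn was farther from 0 in 43 of 80. The mean of the others had a median of -2.57 in these 80 clones, beyond that of head horn.

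The reverse reading, sorted on B and D and read on A, C and E, gave medians of 2.03 in head horn, against 1.54 in thoracic horn and 0.97 in legs for 118 positive clones, with head horn farther out in 100. For 91 negative clones it gave -2.35 in head horn, against -1.90 in thoracic horn and -2.54 in legs, with head horn farther out in 49. In both readings legs were the most negative tissue. The clones were picked for their head horn ratios, which favours head horn in either direction, and no test was made of the difference between the directions. Some clones may share 1 transcript, so the counts of both readings are not counts of separate genes.

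**Figure D4:**
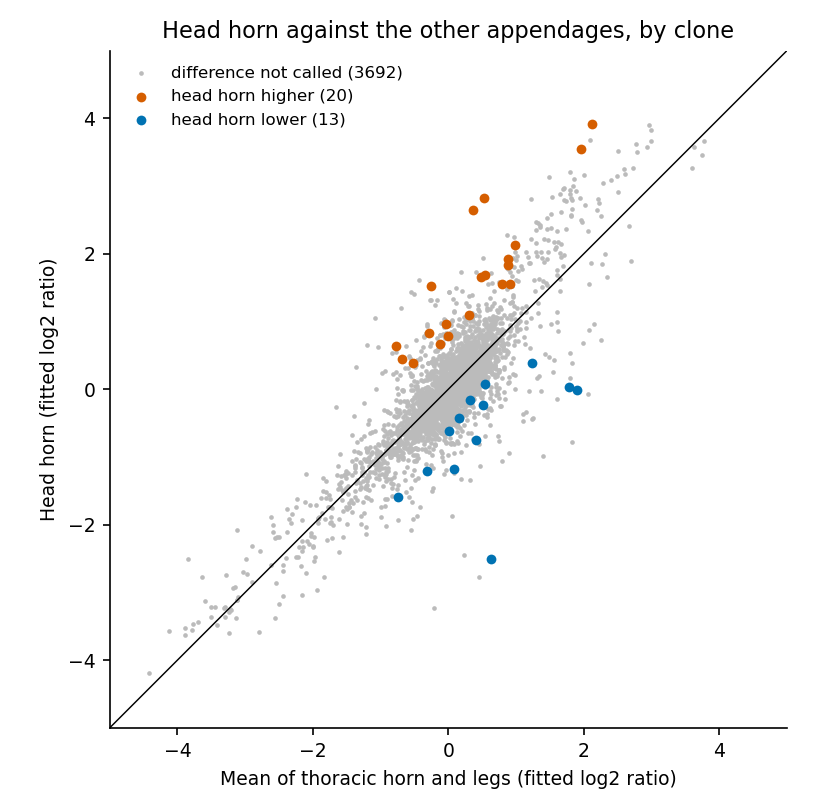
Fitted log2 ratio of head horn (vertical axis) against the mean of the fitted ratios of thoracic horn and legs (horizontal axis) for 3725 clones, with the line of equality. The 20 clones called higher in head horn lie above the line and the 13 called lower lie below it, and most large positive ratios lie above the line while large negative ratios lie on both sides.

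The named extremes were picked for their head horn fits and are read here on the same arrays, and 4 of the 10 highest share nearly 1 profile, so their counts are given as a description. Among the 10 highest clones, head horn lay farther from 0 than the mean of the others in 8, and the contrast was called in OtP020-E08 and OtP015-A03 (with the replicate block also in OtP011-E02, adjusted p = 0.0111 by limma, against 0.0506 without it). Among the 10 lowest, head horn was farther from 0 in 4 of 10 and the contrast was called in none (0 of 10, adjusted p from 0.571 to 0.976 by limma). OtL011-A04 for example stood at -4.19 in head horn, against -3.94 in thoracic horn and -4.90 in legs. OtL009-F10, among the highest, stood at 3.67 in head horn, against 3.39 in thoracic horn and 4.18 in legs.

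The 6 clones highest above the other appendages were chosen by the contrast, among clones complete on 15 arrays with 1 sign of it in every letter. OtL009-C06 stood at 2.95, 4.07, 1.32, 2.64 and 2.60 on A to E in head horn. Its values were 0.68, 1.59, -0.94, 0.35 and 0.29 in thoracic horn and 0.42, 1.89, -0.71, 0.31 and 0.44 in legs. Head horn was higher within each letter by 2.15 to 2.40, and letters B and C stood apart in the same way in all 3 tissues. The contrast was 2.29 ± 0.40 (SE, 4.88-fold, adjusted p = 0.0135 by limma) in the main fit, which does not pair the letters. With the letter as a random replicate block the adjusted p was 1.53e-04, and with a fixed block it was 4.48e-07 (limma).

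OtL016-A04 was close to it, at 2.94, 3.48, 0.50, 2.90 and 2.85 in head horn, with fits of 2.65 in head horn, against 0.27 in thoracic horn and 0.46 in legs. Its contrast was 2.28 ± 0.44 (SE, 4.87-fold, adjusted p = 0.0279 by limma). Of all complete profiles, it was the nearest to OtL009-C06 over 15 arrays, at a root mean square difference of 0.36. The contrast of OtL016-A04 was not called without letter A, B, D or E (adjusted p from 0.0782 to 0.120 by limma). That of OtL009-C06 was not called without A or E (0.0748 and 0.0949 by limma). These fits did not pair the letters. With all letters and the random replicate block, the adjusted p of OtL016-A04 was 4.37e-04 (limma).

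OtL017-A04 stood at 1.28, 1.39, 1.58, 1.45 and 2.06 on A to E in head horn. In thoracic horn it stayed between -0.15 and 0.40, and in legs between -1.04 and -0.19. The 3 tissues did not overlap, and the contrast was 1.78 ± 0.14 (SE, 3.44-fold, adjusted p = 2.87e-05 by limma). In the main fit this was the smallest adjusted p of the 12 clones named for the contrast. With the fixed replicate block it was 6.47e-05, above the 4.48e-07 of OtL009-C06 (limma). OtP020-E08, the highest clone of head horn, stood at 2.19 to 3.19 in thoracic horn and 1.08 to 2.05 in legs, with a contrast of 1.79 ± 0.20 (SE, adjusted p = 6.16e-04 by limma). Its lowest head horn array, 3.36, was above every array of the other tissues.

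OtP015-A03 had a contrast of 1.60 ± 0.18 (SE, adjusted p = 6.16e-04 by limma). The fits were 3.56 in head horn, against 3.25 in thoracic horn and 0.67 in legs, and head horn minus thoracic horn was 0.30 and was not called (adjusted p = 0.794 by limma).

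OtP020-G07 was the 1 clone called against abdomen with 1 sign in head horn and the other in both other tissues. Its head horn values were 0.73, 0.34, 1.55, 0.52 and 0.40 on A to E. Its thoracic horn values were -0.40, -1.40, -0.09, -0.97 and -0.56, and its legs values -0.47, -1.09, -0.38, -1.24 and -0.47. All head horn arrays were above 0 and all others below it. The fits were 0.64 ± 0.14, -0.75 ± 0.14 and -0.80 ± 0.14 (SE), and the contrast was 1.41 ± 0.17 (SE, 2.66-fold, adjusted p = 9.01e-04 by limma). The head horn ratio itself was not called on the head horn arrays alone (adjusted p = 0.0778 by limma).

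**Figure D5:**
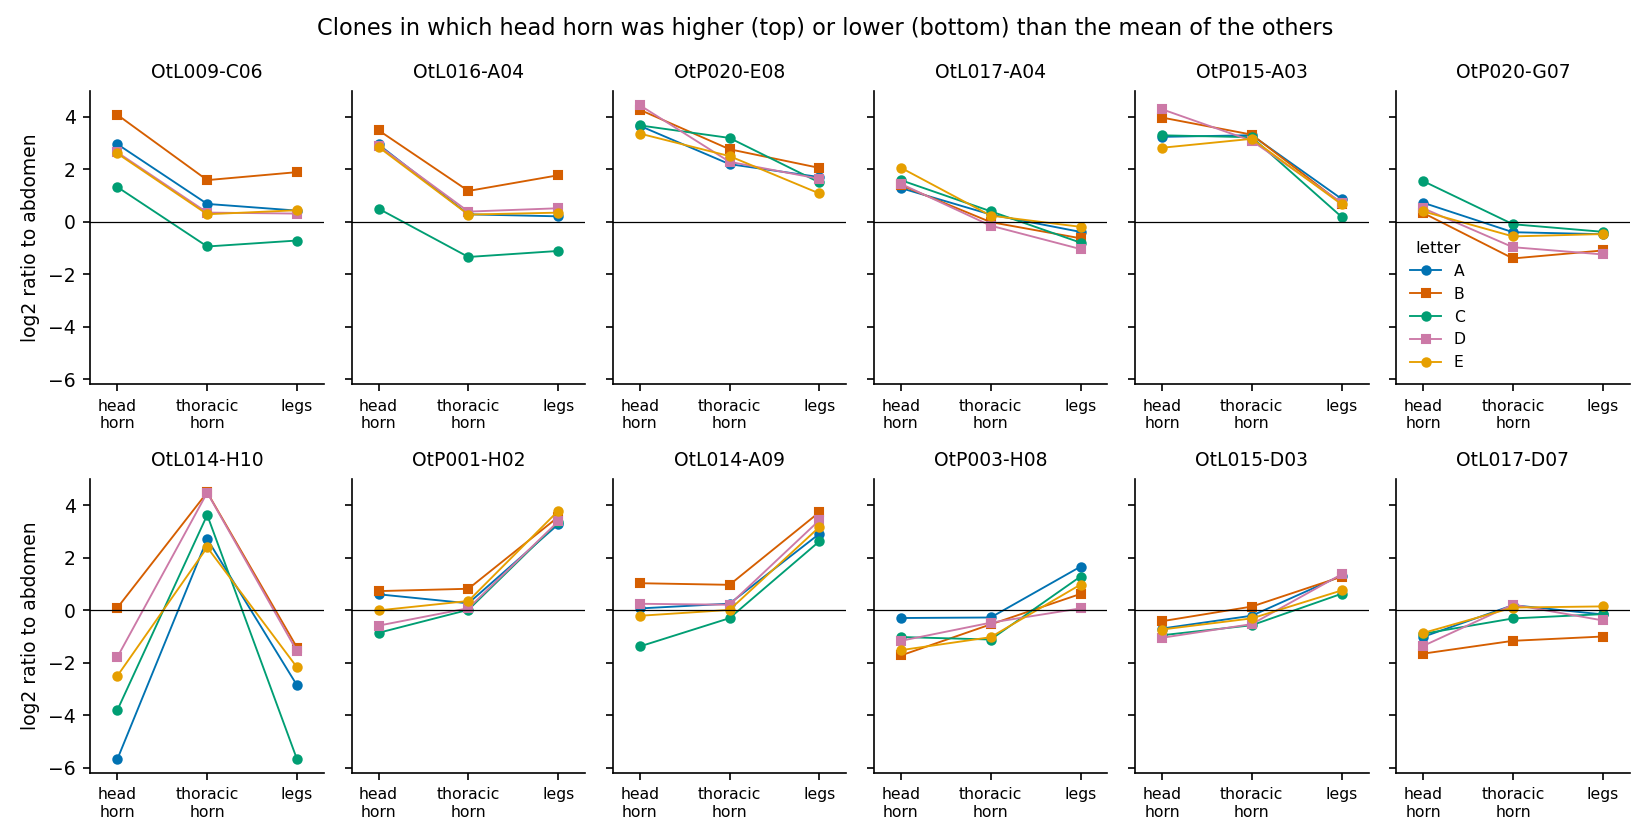
Log2 ratio to abdomen in head horn, thoracic horn and legs for the 6 clones highest (top) and the 6 lowest (bottom) in head horn against the mean of the others, with 1 line per letter (circles, appendage in Cy3; squares, appendage in Cy5). All lines of the top row are lower in legs than in head horn. In OtP001-H02 and OtL014-A09 of the bottom row, head and thoracic horn lie between -1.38 and 1.03, with legs above 2.6.

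In the 6 clones farthest below the other appendages, head horn differed by test from 1 of them alone, from legs in 5 and from thoracic horn in OtL014-H10. OtP001-H02 stood at 0.61, 0.73, -0.86, -0.59 and -0.01 in head horn and at 3.27 to 3.78 in legs, while thoracic horn lay between 0.02 and 0.82. OtL014-A09 stood at 0.07, 1.03, -1.38, 0.25 and -0.21 in head horn and at 2.62 to 3.73 in legs. Neither was called in head horn against abdomen (adjusted p = 0.977 and 0.914 by limma), and their contrasts were -1.91 ± 0.25 and -1.75 ± 0.24 (SE). By their fits, these clones were high in legs and near 0 in both horns.

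OtL014-H10 had the largest contrast of the 12 named clones, -3.13 ± 0.61 (SE, adjusted p = 0.0295 by limma). Its head horn values were -5.67, 0.10, -3.80, -1.78 and -2.50 on A to E, with thoracic horn between 2.40 and 4.49 and legs between -5.68 and -1.42. Head horn and legs overlapped, and thoracic horn lay above both. Its contrast was not called without letter A, B, D or E (adjusted p from 0.0562 to 0.146 by limma), and without A it was -2.52.

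OtL015-D03 and OtP003-H08 were below 0 in head horn, at -0.75 ± 0.13 and -1.18 ± 0.21 (SE), and above 0 in legs, at 1.09 and 0.88. In thoracic horn they stood at -0.27 and -0.72. OtL017-D07 was lowest in head horn, at -1.21 ± 0.16 (SE), against -0.25 in thoracic horn and -0.37 in legs. The contrast of OtP003-H08 was not called without any 1 letter (adjusted p from 0.0620 to 0.165 by limma), and that of OtL017-D07 without A, C or E (0.112 to 0.196).

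Head horn stood apart from both thoracic horn and legs, each difference called with the same sign, in 9 clones (0.242%). Head horn was higher in 8 and lower in 1. All 9 were also apart with the replicate block, where the count was 30. Without letter A, D or E the count was 3, 1 or 5. Named here after their values were seen, besides the 5 already described, were OtP007-D05, OtL014-H03, OtL016-F08 and OtL020-E11.

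OtL014-H03 stood at 1.84, 1.66, 1.83 and 1.88 on A to D and was highest on E, with fits of 1.84 ± 0.09 in head horn, against 1.06 ± 0.09 in thoracic horn and 0.71 ± 0.09 in legs (SE). Head horn was 1.71-fold above thoracic horn (adjusted p = 0.00955 by limma) and 2.18-fold above legs (adjusted p = 1.79e-04). OtL016-F08 was similar at 1.56 in head horn, against 0.97 in thoracic horn and 0.86 in legs. OtP007-D05 stood at 0.96 ± 0.14 (SE) in head horn, with thoracic horn and legs both within 0.1 of 0. OtL020-E11 was the 1 clone lower in head horn than in both, at -0.23 ± 0.11 (SE), against 0.70 in thoracic horn and 0.31 in legs, and its head horn ratio was not called against abdomen (adjusted p = 0.107 by limma).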

How the data were processed

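Each of 15 arrays gave 1 deposited value per clone, a log2 ratio of appendage and dorsal abdominal epithelium that the authors had normalized, with limma per the submitters' processing notes. Background correction, normalization method, log base and the reason for 1799 empty cells were not stated in the labels or notes. Scanner intensities were not used here, so signal over background is unknown and the number of arrays limits the precision. Grouping and dye layout follow the labels.

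A clone was tested if each tissue had 3 or more values and both layouts (3725 of 3840; 115 left out). The limma package (3.58.1, under R 4.3.3) fitted a linear model with lmFit and eBayes to the 15 arrays, with a coefficient per tissue and 1 shared layout term. Head horn was tested against 0, and against thoracic horn and legs by contrasts refitted exactly for clones with empty values. P-values were adjusted by Benjamini-Hochberg over all clones tested. They measure the spread between arrays over the 3 tissues. The script was tested on simulated data with noise drawn separately for each array, so that test does not cover deviations shared by a letter.

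Same-letter deviations of head horn and the other tissues gave 10 correlations between 0.47 and 0.67. Within layout these were 0.34 to 0.48. The values therefore pair the letters, although the labels tie animals only within an array.

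Clones were named by rule: the 10 highest and 10 lowest called fits with 5 values of 1 sign; the 6 highest and 6 lowest called contrasts against the mean of the others, complete and of 1 sign in 5 letters; at 4-fold or more, the 3 smallest and 3 largest SDs; and up to 5 clones of opposite sign to both other tissues. Comparison and rules were chosen with earlier results of these data known. Gene names, and sequences, were not used here. Alternatives covered the layout term, centring, scaling, empty values, moderation, the letter as a block, single layouts and leaving out letters. Figures were drawn with matplotlib 3.10.9.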

Additional observations from a re-analysis of the deposited data

Results flagged for a closer look

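In 40 tests for a letter far from the rest, 4 passed Dixon's limit for 5 values. Chance gives about 1 in 20 for items not picked by their values. Most items here were clones named by their values on these same arrays, so that rate does not hold for them. The items also included the share of the root mean square left by the other appendages. Array D had 295 empty clones. Array C stood apart in OtP017-E05 at -7.36, in OtL016-A04 at 0.50 and in OtL008-H02 at -2.05.

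Head horn differed from the mean of thoracic horn and legs, by the test of that difference, in the 12 named clones. They were named because that difference was called, so the outcome follows from the choice. None of the 12 kept the call within a single dye layout, and some lost it with a letter left out, as given above. It was higher in OtL009-C06 (2.29), OtL016-A04 (2.28), OtP020-E08 (1.79), OtL017-A04 (1.78), OtP015-A03 (1.60) and OtP020-G07 (1.41). It was lower in OtL014-H10 (-3.13), OtP001-H02 (-1.91), OtL014-A09 (-1.75), OtP003-H08 (-1.26), OtL015-D03 (-1.16) and OtL017-D07 (-0.91). All values are on the log2 scale. In the lower clones head horn differed by test from legs alone, except in OtL014-H10, where it differed from thoracic horn alone.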

How the results depend on the processing

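The 1408 head horn calls became 734 on the 5 head horn arrays alone, 917 within the Cy3 letters (A, C, E) and 797 within the Cy5 letters (B, D), fits with fewer arrays. Under the other alternatives they ranged from 1133 (without letter D) to 1423, and with the letter as a replicate block there were 1358. Calls at 2-fold or more stayed between 423 and 488. The contrast with the mean of the other appendages (33 clones) gave 15 without a layout term, 50 with centred arrays, 55 on complete clones, 188 and 222 with the letter as a random and a fixed replicate block, 0 within either layout, and 12 to 26 with a letter left out. Its count among head horn calls (26) was 12, 41, 48, 138, 160 and 0 in the same order, and 10 to 21 with a letter left out. Clones apart from both tissues (9) numbered 3 without a layout term, 4 with scaled arrays, 14 on complete clones, 30 and 46 with the blocks, 0 within either layout and 1 to 6 with a letter left out. The share of the root mean square left by the others (57.0%) was 80.5% when they came from letters of the opposite layout and 37.6% by products over different letters. The cause of these changes was not tested. Of 415 alternative values for the clones named by their head horn ratio, 403 kept the call, and of 192 for the contrast, 141 did, with 24 of the losses within a single layout. The clones were named from calls on these same arrays, which favours a kept call, so these counts do not test the calls. None of these values changed sign, which the choice of clones by extreme fits and, for most, 1 shared sign made likely.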
